A study of Mus musculus with 12 samples.

Results

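The actin cytoskeleton genes described here are 44 of the 56748 genes in the count table: both cytoplasmic actins, 9 members of the Arp2/3 complex, and genes of filament nucleation, monomer binding, turnover, capping, crosslinking, membrane linkage and contraction. The genes were listed by name and kept where the authors' own comparison of the 2 culture conditions holds them, which was true of all 44. The list was drawn up with results of these data known, so the counts below describe its genes and do not test the list. All 44 also passed the filter on low counts used here.

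The 12 RNA libraries came from CD8+ T cells of 6 mice, 3 in experiment 1 and 3 in experiment 2. Whole spleens were stimulated for 24 hours with the peptide their T cell receptor recognises (250 nM SIINFEKL for OT-1 mice, 1 uM gp100 for pmel-1 mice). The cells were then expanded for 6 days with 50 ug/mL IL-2 and sorted for CD8 on day 7. Each mouse has an untreated library and a library of cells expanded with 5 mM dichloroacetate (DCA), a small molecule that inhibits the pyruvate dehydrogenase kinases. Every group has 3 libraries, and both arms received the peptide and IL-2.

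Experiment 1 mice carry the strain tag OT-1 and the genotype C57BL/6-Tg(TcraTcrb)1100Mjb/J, although the sample titles call them Pmel-1. Experiment 2 mice carry the strain tag Pmel-1 and the genotype of B6.Cg-Thy1a/Cy mice with the transgene written Tg(TcraTcrb)8Rest/J, and their titles say the same. The labels also name 2 technical batches without saying which libraries belong to each, and the library names differ between the experiments. Strain, experiment and such a batch cannot be told apart, so any difference between experiments may belong to each of them.

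Actin monomers (G-actin) assemble into filaments (F-actin) that give a T cell its cortex, its leading edge and the ring of actin at the contact with a target cell. Profilin and the thymosins hold monomers, the Arp2/3 complex branches filaments under the control of WASP and WAVE proteins, and formins and Ena/VASP proteins elongate them. Capping protein stops filament ends, cofilin and its partners take filaments apart, and crosslinkers, myosin and the ezrin and talin families tie filaments to each other and to the membrane.

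Total counts per library, rounded to 6 digits, were between 28039700 and 41051100. In experiment 1 the untreated libraries held 30352500 to 41051100 counts and the DCA libraries 28039700 to 30494800. Experiment 1 libraries had a count for 18382 to 19551 genes and experiment 2 libraries for 23635 to 26571. The T cell markers Cd3d, Cd3e, Cd3g, Cd8a and Cd8b1 summed to 3226 to 5120 CPM (read counts scaled to the size of each library) and Cd4 stayed at or under 0.701 CPM. In experiment 2 the T cell sum was lower with DCA (3226 to 3385 CPM) than without (3999 to 4478 CPM), and in experiment 1 the ranges overlapped (4729 to 5051 CPM with DCA, 4381 to 5120 CPM without). Of 6 B cell markers, Ighm and Cd79b made up nearly all of the sum (290 to 500 CPM), which was 290 to 435 CPM in untreated and 395 to 456 CPM in DCA libraries of experiment 1, and 353 to 451 and 419 to 500 CPM in those of experiment 2, while Ms4a1 and Pax5 stayed at or under 0.0831 CPM. The highest sum over the macrophage and dendritic cell list was 33.8 CPM, with Lyz2, Csf1r and Adgre1 at or under 0.382 CPM. Neutrophil, platelet, stromal and red cell lists summed to at most 0.565, 0.675, 1.20 and 1.53 CPM. Natural killer markers (Ncr1, Klrb1c and Klre1) summed to 17.7 to 24.5 CPM in untreated and 12.7 to 22.4 CPM in DCA libraries of experiment 1, and to at most 1.70 CPM in experiment 2, with Ncr1 at or under 0.156 CPM. The endothelial list was nearly all Pecam1, at 13.2 to 22.8 CPM in experiment 1 and 40.1 to 46.7 CPM in experiment 2, with Cdh5 at or under 0.0305 CPM. The share of mitochondrially encoded counts in experiment 1 was 1.01% to 1.14% in untreated libraries and 1.32% to 1.58% in DCA libraries, and in experiment 2 it overlapped (2.27% to 2.85% and 2.11% to 2.40%). The part of these differences in the results below was not tested.

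Many actin genes are known targets of serum response factor, which binds a CArG box and whose MRTF coactivators respond to free actin monomers. Windows of 300 bases (250 before and 50 after the start of a gene) came from RefSeq on GRCm38.p6. The deposited counts were made on GRCm39. Actb, Arpc5l, Coro1b, Cotl1, Diaph1 and Twf2 had no window, so they were not searched. Windows were available for the other 38 of the 44 genes. A full CArG box on either strand was found in 5 of the 49 windows of these genes (10.2%), in 6 of 158 windows of 107 other genes of actin regulation (3.80%) and in 535 of 32851 windows in all (1.63%). The 5 stretches are shown because they let the genes with this motif be set beside their values, with the box in capitals and the strand of the gene from 5′ to 3′. A match is only a match of letters.
Actg1 (chr11:120348551-120348610, minus strand): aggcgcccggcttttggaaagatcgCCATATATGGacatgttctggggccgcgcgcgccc
Arpc4 (chr6:113377863-113377897, plus strand): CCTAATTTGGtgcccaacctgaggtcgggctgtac
Myl6 (chr10:128493025-128493084, minus strand): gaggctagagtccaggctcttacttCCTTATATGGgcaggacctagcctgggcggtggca
Nebl (chr2:17462984-17463043, minus strand): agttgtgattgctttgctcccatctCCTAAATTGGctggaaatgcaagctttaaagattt
Vcl (chr14:20929148-20929205, plus strand): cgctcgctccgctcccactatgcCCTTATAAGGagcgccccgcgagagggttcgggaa
The box lies 81 to 90 bases before the start of Actg1, 241 to 250 before Arpc4, 41 to 50 before Myl6, 153 to 162 before Nebl and 218 to 227 before Vcl. These 5 genes did not move in 1 direction with DCA: over both experiments Nebl was called higher and Actg1 lower, and Arpc4, Myl6 and Vcl were not called, as given below.

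Per kilobase of the gene length in the deposited table, the thymosin gene Tmsb4x had the highest mean level in each of the 4 groups, 9353 to 10852 CPM per kilobase. Tmsb10, which also encodes a thymosin that holds monomers, followed at 3427 to 5400 CPM per kilobase, and Pfn1, which encodes profilin, at 1877 to 4382. Actb, the gene of beta-actin, lay at 700.5 to 1460 CPM per kilobase. At the low end Nebl, Actn1 and Vcl stayed at or under 1.10 CPM per kilobase in every group mean. The sources used here do not give how the length column was derived. The 44 genes together took 4.23% to 5.47% of all counts. Their share was lower with DCA in 6 of 6 mice, at 4.23% to 4.57% against 4.42% to 4.69% untreated in experiment 1, and at 4.77% to 4.78% against 5.13% to 5.47% in experiment 2. The experiment 1 ranges overlapped and the experiment 2 ranges did not.

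The question the design puts first is which of these genes differed in DCA-expanded cells. Over both experiments 18 of the 44 genes fell and 2 rose (edgeR's quasi-likelihood test with a term for experiment, TMM scaling of library sizes, Benjamini-Hochberg adjusted p under 0.05 over 15688 genes). Of all genes tested, 9.80% were called lower and 7.01% higher, 16.8% in all. By TMM scaling the genes that fell were mainly those of bulk actin assembly and disassembly. They included both actins, 5 of 9 Arp2/3 members, all 5 turnover genes and the profilin gene. This grouping depends on the scaling, under which lower calls were more common among abundant genes of any kind. After cyclic loess scaling, 10 of the 20 calls remained and both actins were lost, as given below. The log2 fold changes of the 18 genes that fell were small, from -0.14 for Lcp1 to -0.53 for Pfn1. The 2 that rose, Nebl and Actn1, rose by more than 1 log2 unit. Also 18 genes were lower in 6 of 6 mice, against 10.8% of all genes, and 3 were higher in 6 of 6, against 8.53%. The median log2 fold change of the 44 genes was -0.10 and that of all genes -0.02. In bulk RNA, fewer cells of a type and less RNA per cell cannot be told apart.

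The actins head the list by role. Actb was 3727, 4397 and 3612 CPM in the untreated libraries of mice 1, 2 and 3 of experiment 1 and 3197, 3047 and 3556 CPM with DCA. Experiment 2 gave 2645, 2548 and 2405 CPM untreated and 1969, 1858 and 1803 CPM with DCA. Every DCA library lay under every untreated library of its experiment, although mouse 3 of experiment 1 moved little (a log2 difference of -0.02). The log2 fold change over both experiments was -0.35 (SE 0.06, adjusted p = 0.00139), a fall of 21.3%.

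Actg1, the gene of gamma-actin, was 625, 565 and 613 CPM untreated and 498, 524 and 543 CPM with DCA in experiment 1. The experiment 2 libraries had 1695, 1670.0 and 1699 CPM untreated and 1410.5, 1451 and 1520.0 CPM with DCA. The arms did not overlap in either experiment, and the experiments lay far apart. Its log2 fold change with DCA was -0.21 (SE 0.04, adjusted p = 0.00364). Actb and Actg1 are near-identical in their coding parts and both have many processed pseudogenes, and no source used here says how shared reads were counted, so their levels and their ratio are uncertain.

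**Figure D1:**
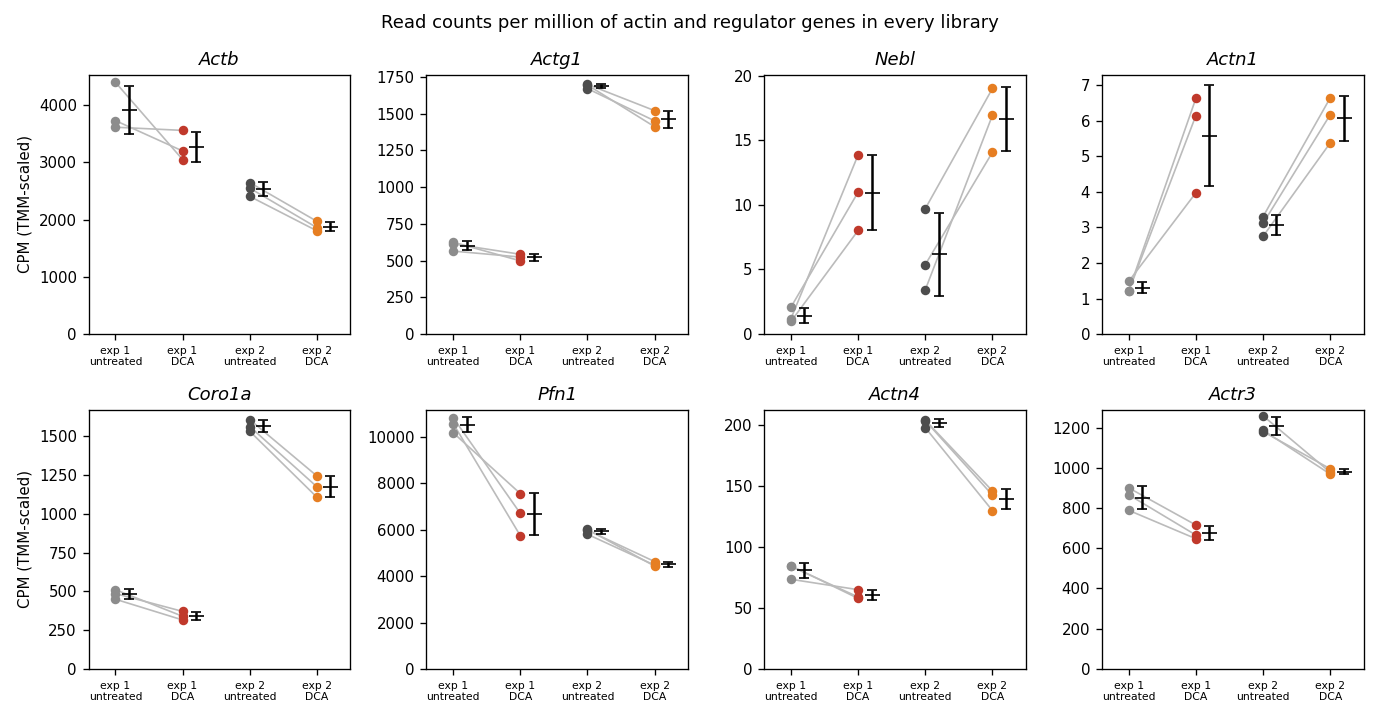
CPM after TMM scaling (y axes from 0) of 8 genes in each of the 12 libraries, by group, with lines joining the 2 libraries of a mouse and bars for the mean and SD of 3 libraries. Nebl and Actn1 rise along all 6 lines, the other 6 genes fall along all 6, and the 2 experiments differ in level, with Actg1 at 498 to 625 CPM in experiment 1 and 1410.5 to 1699 in experiment 2.

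Profilin and 1 other monomer-binding gene fell. Pfn1 was 10587, 10840.3 and 10192 CPM untreated and 5746, 6708 and 7562 CPM with DCA in experiment 1. Mice of experiment 2 had 5807, 6018 and 5985 CPM untreated and 4476, 4434 and 4629 CPM with DCA. Its arms were well apart in both experiments, and its log2 fold change of -0.53 (SE 0.06, adjusted p = 0.000151) was the most negative among the 44 genes. Cap1, whose protein returns monomers to profilin and works with cofilin, was also called lower (-0.34, SE 0.11, adjusted p = 0.0346), at 12.7 to 54.0 CPM. The Cap1 call held in 3 of the 12 fits that leave out 1 library, with adjusted p up to 0.0874 (without experiment 2 untreated mouse 2). Tmsb4x had a log2 fold change of -0.06 (SE 0.06, adjusted p = 0.533), and Tmsb10 and the twinfilin gene Twf2 were not called (-0.04 and -0.03).

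All 5 listed genes of filament turnover fell by TMM scaling, of which Coro1a and Cotl1 stayed called after cyclic loess scaling. Of 16 other turnover and capping genes tested outside the list, 5 were called higher and 2 lower. Coro1a, which encodes the coronin of blood cells, was 511, 449 and 486 CPM untreated and 339.6, 316 and 371 CPM with DCA in experiment 1. For experiment 2 the values were 1564, 1609 and 1534 CPM untreated and 1175, 1245 and 1108 CPM with DCA. The arms were apart in both experiments, with a log2 fold change of -0.46 (SE 0.05) and the smallest adjusted p of the 44 genes (0.000111). The other 4 were Cotl1, a coactosin-like filament binder (-0.31, adjusted p = 0.0022), Wdr1, a cofilin cofactor (-0.25, adjusted p = 0.00348), Coro1b (-0.25, adjusted p = 0.0164) and Cfl1, cofilin itself (-0.31, SE 0.10, adjusted p = 0.0418). The Cfl1 call held in 5 of 12 fits without 1 library (adjusted p up to 0.0886, without experiment 1 untreated mouse 3) and was lost with a term per mouse (adjusted p = 0.056).

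Among the 9 Arp2/3 members, 5 fell and none rose. Actr3, an actin-related core subunit, was 866, 789 and 901 CPM untreated and 666, 648 and 716 CPM with DCA in experiment 1. The experiment 2 libraries had 1181, 1259 and 1188 CPM untreated and 996, 978 and 969 CPM with DCA. Neither experiment showed overlap, and the log2 fold change was -0.32 (SE 0.04, adjusted p = 0.000412). The other actin-related subunit Actr2 (-0.22, adjusted p = 0.0028), Arpc2 (-0.25, adjusted p = 0.00209) and Arpc1a (-0.34, adjusted p = 0.0047) fell too. Arpc1b fell by 0.19 on the log2 scale (adjusted p = 0.0357), a call that held in 7 of 12 fits without 1 library (adjusted p up to 0.0776, without experiment 1 untreated mouse 1) and not with a term per mouse (adjusted p = 0.0713). The Arpc1b call was also lost with no filter on low counts (adjusted p = 0.0624) and with a filter of 5 CPM in 3 libraries (adjusted p = 0.0622). The remaining members Arpc3, Arpc4, Arpc5 and Arpc5l were at 0.37, -0.17, -0.02 and -0.12, with adjusted p-values of 0.175, 0.103, 0.88 and 0.095. The subunits of this single complex thus did not all pass, at levels from 24.3 CPM (Arpc3) to 2656 CPM (Arpc2) in single libraries.

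The upstream controllers were not called in the main fit. Of the 7 nucleation and elongation factors (Was, Wipf1, Wasf2, Fmnl1, Diaph1, Vasp and Evl) none passed in either direction, with log2 fold changes from -0.10 to 0.08. These genes encode WASP and its partner, a WAVE protein, 2 formins and 2 Ena/VASP proteins. Dock2 and Dock8, exchange factors that activate Rac and Cdc42, were at 0.28 (adjusted p = 0.0583) and 0.07 (adjusted p = 0.757). Dock2 was the third gene higher in 6 of 6 mice, and some alternative fits called it higher, as given below. The myosin II genes Myh9 and Myl6, heavy and light chain, were at 0.10 and 0.01.

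Capping and crosslinking genes were mixed. Capzb, the beta subunit of capping protein, fell (-0.25, SE 0.05, adjusted p = 0.00517), and its alpha partners Capza1 and Capza2 were at -0.11 and -0.07 with adjusted p-values of 0.297 and 0.478. Actn4 and Actn1 encode alpha-actinins, dimers that crosslink filaments, and went in opposite directions. Actn4 was 84.2, 84.7 and 73.6 CPM untreated and 59.0, 57.9 and 65.0 CPM with DCA in experiment 1, and 204, 204 and 198 CPM untreated and 143, 146 and 130.0 CPM with DCA in experiment 2. All 6 DCA libraries were under the untreated libraries of their experiment, with a log2 fold change of -0.47 (SE 0.06, adjusted p = 0.000245).

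Actn1 was 1.21, 1.22 and 1.48 CPM untreated and 6.15, 6.63 and 3.97 CPM with DCA in experiment 1. Experiment 2 gave 2.75, 3.30 and 3.11 CPM untreated and 5.38, 6.64 and 6.17 CPM with DCA. The DCA libraries of the 2 experiments covered like ranges while the untreated ones did not overlap. Its log2 fold change was 1.52 (SE 0.23, adjusted p = 0.0006), or 2.86-fold. Per kilobase, Actn4 stood at 44.8 to 62.9 times Actn1 in untreated and 7.88 to 14.8 times in DCA libraries of experiment 1, and at 55.8 to 67.0 and 19.0 to 24.0 times in experiment 2. Actn4 remained the more abundant alpha-actinin RNA in every library.

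Nebl encodes nebulette, a filament-binding protein of the nebulin family known from heart muscle, and from the same gene a shorter LIM and SH3 form. It was 0.975, 1.19 and 2.08 CPM untreated and 8.02, 13.9 and 11 CPM with DCA in experiment 1. The 6 libraries of experiment 2 held 5.38, 3.43 and 9.71 CPM untreated and 14.1, 16.9 and 19.0 CPM with DCA. The arms did not overlap, and the untreated libraries of experiment 2 spread most. Its log2 fold change was 2.12 (SE 0.32, adjusted p = 0.000657), or 4.36-fold, the largest among the 44 genes. Counts per gene do not say which form was present.

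The other crosslinkers and linkers mostly did not pass. Lcp1, the bundling protein L-plastin, was called lower at -0.14 (SE 0.04, adjusted p = 0.0204). That call held in 7 of 12 fits without 1 library (adjusted p up to 0.0756, without experiment 2 DCA mouse 1), and with a term per mouse the adjusted p was 0.0646. The Lcp1 call was also lost with no filter on low counts (adjusted p = 0.159) and with a filter of 5 CPM in 3 libraries (adjusted p = 0.119). Flna, filamin A, was at -0.10 (adjusted p = 0.434). Ezr, which ties the cortex to the membrane as ezrin, fell by 0.36 on the log2 scale (SE 0.07, adjusted p = 0.00315), whereas its relative Msn, moesin, was at 0.04 (adjusted p = 0.573). The adhesion linkers Tln1 and Vcl were at -0.10 and 0.46 (adjusted p = 0.423 and 0.614), Vcl with at most 2.02 CPM.

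**Figure D2:**
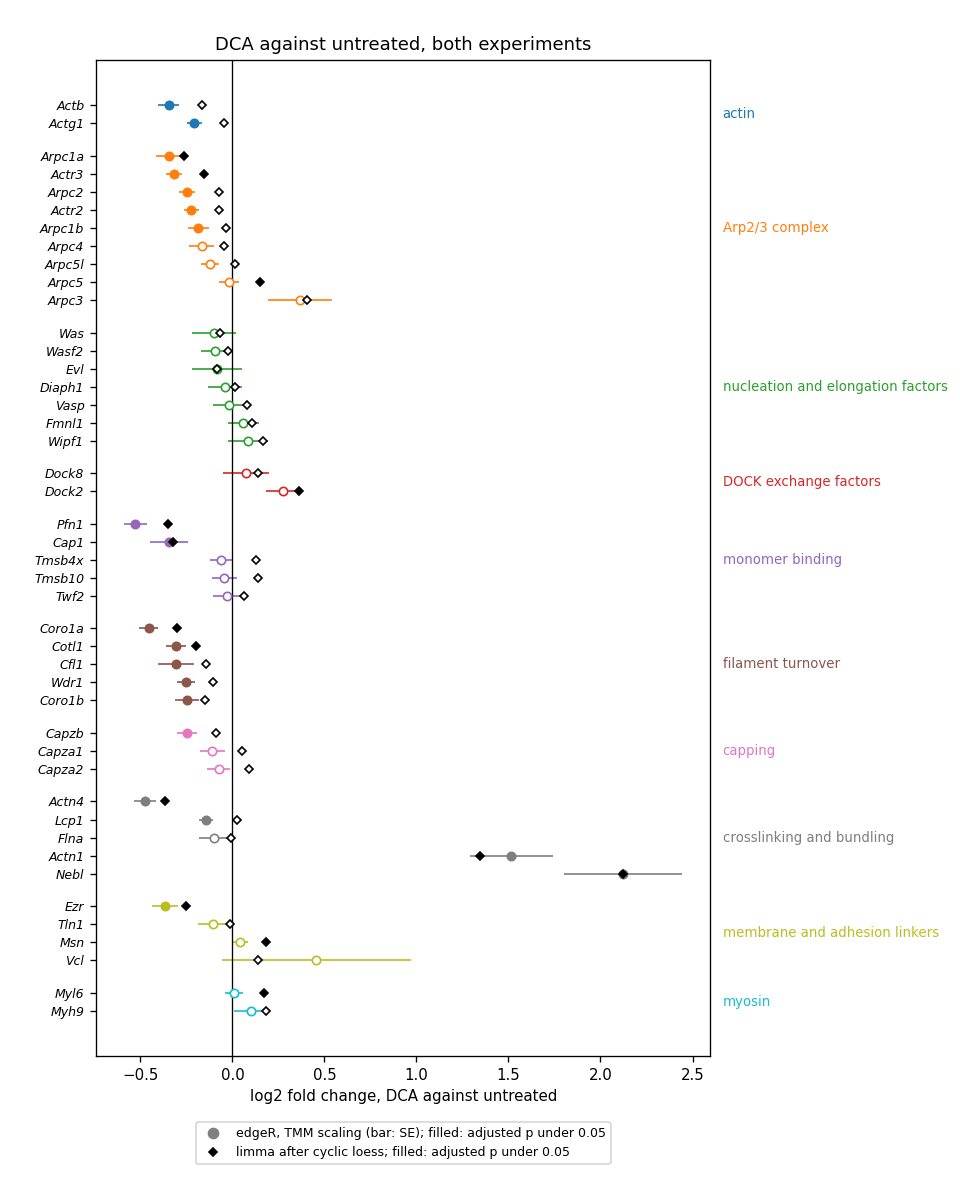
Log2 fold change of DCA against untreated cells over both experiments (x axis) for the 44 genes, grouped by role (y axis). Circles are the edgeR fit with SE bars, diamonds the fit after cyclic loess scaling, and filled symbols have an adjusted p under 0.05; most diamonds lie to the right of their circles, and Nebl and Actn1 stand apart above 1.

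Calls went with level. Among the 25 genes with a mean of 100 CPM or more, a limit chosen after the data were seen, 16 were called lower and none higher, with a median log2 fold change of -0.22. Of all 2028 tested genes at that level, 758 (37.4%) were called lower and 119 (5.87%) higher, with a median of -0.14. In the range of 1 to 10 CPM, which holds Nebl, Actn1 and Vcl, the calls over 4374 genes were 413 higher and 91 lower, around a median of 0.11. After TMM scaling, lower calls were thus more common among abundant genes of any kind.

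Cyclic loess scaling takes out such a trend with level, and after it limma called 8 of the 44 genes lower and 6 higher, against 6.64% and 7.85% of all genes. Of the 20 calls, 10 remained, all in the same direction: Coro1a, Pfn1, Actn4, Actr3, Cotl1, Ezr, Arpc1a and Cap1 lower, and Nebl and Actn1 higher. Both actins were among those lost, with log2 fold changes of -0.17 (adjusted p = 0.112) for Actb and -0.04 (adjusted p = 0.527) for Actg1. Arpc2, Actr2, Arpc1b, Cfl1, Coro1b, Wdr1, Capzb and Lcp1 were lost too, Lcp1 with a change of sign (0.02). Arpc5 (0.15), Msn (0.18) and Myl6 (0.17) were called higher only after this scaling, and Dock2 (0.36) was called higher too. Dock2 was also called by DESeq2, with no filter on low counts, with a filter of 5 CPM in 3 libraries, and without untreated mouse 3 of experiment 2. The TMM factors themselves were higher with DCA, 0.910 to 0.934 against 0.818 to 0.845 in experiment 1 and 1.15 to 1.17 against 1.12 to 1.13 in experiment 2. Which of the scalings is nearer to the amount per cell was not tested.

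**Figure D3:**
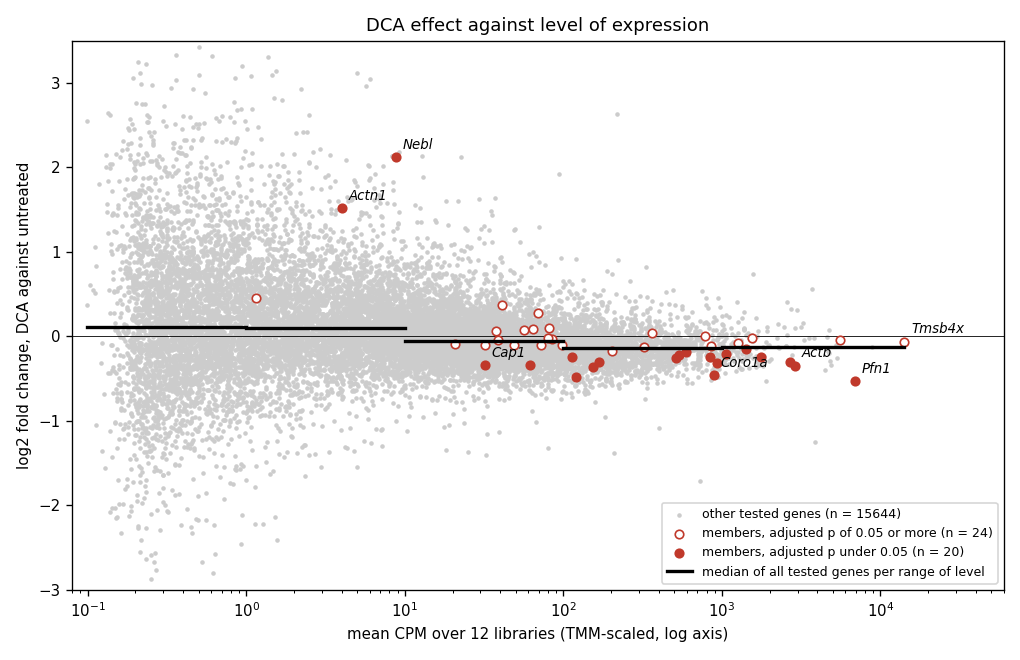
Log2 fold change of DCA against untreated cells (y axis) by mean CPM over the 12 libraries (x axis, log scale), with all tested genes in grey, the 44 actin genes in red and black lines for the median of all genes in each range of level. The line falls from 0.11 under 1 CPM to -0.14 at 100 to 1000 CPM, and most filled red points lie under it at the right; 23 genes lie outside the axes.

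In the authors' deposited table, 10 of the 44 genes had a false discovery rate under 0.05 and a negative log2 fold change, and 2 a positive one, Nebl and Actn1. Of the 15067 genes there, 5.42% were lower and 5.12% higher by this rule, 10.5% in all. The authors' deposited table gives Nebl 2.13, Actn1 1.52, Coro1a -0.45, Pfn1 -0.52 and Actb -0.34 as log2 fold changes. For Actg1 the authors' deposited table has a false discovery rate of 0.121 and for Cfl1 of 0.116. Other genes called lower in the main fit did not pass there either: Lcp1 (0.505), Arpc1b (0.283), Coro1b (0.104), Cap1 (0.0889), Actr2 (0.0738) and Capzb (0.0641).

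Within experiment 1, 16 of the 44 genes fell with DCA and 5 rose, against 11% and 5.67% of all genes (16.7% in all). Nebl rose by 2.95 (SE 0.38, adjusted p = 0.000329) and Actn1 by 2.10 (SE 0.26, adjusted p = 0.000286) on the log2 scale. Dock2 (0.45, adjusted p = 0.019), Arpc3 (0.72, adjusted p = 0.0335) and Wipf1, the partner of WASP (0.36, adjusted p = 0.0367), rose as well. Arpc3 and Wipf1 were not called with a term per mouse (adjusted p = 0.0634 and 0.0538). All 3 calls were lost when untreated mouse 1 or mouse 2 of experiment 1 was left out, which left 2 genes higher, and 3 were higher without its DCA mouse 1 (Dock2 and Wipf1 lost). Arpc3 was 29.0, 24.3 and 36.5 CPM untreated and 35.7, 70.8 and 41.6 CPM with DCA. The value of DCA mouse 2 stands above the others, with a log2 difference of 1.54 in that mouse and of 0.30 and 0.19 in mice 1 and 3. Without that library the Arpc3 fold change was 0.37 on the log2 scale (adjusted p = 0.16). Without DCA mouse 3 the Wipf1 call was lost (adjusted p = 0.114). The model with the mouse term called 3 genes higher and 10 lower.

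The genes that fell in experiment 1 with the smallest adjusted p-values were Pfn1 (-0.66, adjusted p = 0.00017), Coro1a (-0.49, adjusted p = 0.000517) and Capzb (-0.35, adjusted p = 0.00181). Actr3 (-0.33, adjusted p = 0.00255), Actn4 (-0.41, adjusted p = 0.00369) and Wdr1 (-0.32, adjusted p = 0.00404) followed, then Cfl1 (-0.51, adjusted p = 0.008) and Arpc2 (-0.27, adjusted p = 0.00889). The Arpc2 call held in 8 of 12 fits without 1 library (adjusted p up to 0.0647, without DCA mouse 2 of experiment 2). It was lost with a filter of 5 CPM in 3 libraries (adjusted p = 0.0788). Actb was called at -0.26 (SE 0.08, adjusted p = 0.0318), with an adjusted p of 0.0584 with a term per mouse. The Actb call held in 3 of 12 fits without 1 library (adjusted p up to 0.124, without untreated mouse 2 of experiment 1). The number lower was 7 without untreated mouse 2 or any 1 of the 3 DCA libraries of experiment 2. It was 8 without untreated mouse 1 or 3 of experiment 2 or DCA mouse 1 of experiment 1, and 10 without untreated mouse 3 of experiment 1. After cyclic loess scaling it was 3 (Pfn1, Coro1a and Cfl1), with 9 higher, against 6.55% and 6.81% of all genes. Leaving out any 1 library of experiment 2 moved the experiment 1 median log2 fold change of all genes up by 0.0477 to 0.0494. The part of this shift in the number of genes called was not tested. Arms did not overlap for 18 genes lower with DCA and 6 higher, against 18.0% and 11.3% of all genes.

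Within experiment 2, 8 genes fell and 2 rose, against 2.20% and 2.37% of all genes (4.57% in all). Actn4 (-0.53, adjusted p = 0.0027), Coro1a (-0.42, adjusted p = 0.00587), Ezr (-0.50, adjusted p = 0.00588) and Actb (-0.43, SE 0.08, adjusted p = 0.00725) led those lower. Pfn1 (-0.40, adjusted p = 0.00871), Actr3 (-0.30, adjusted p = 0.0141), Cotl1 (-0.34, adjusted p = 0.0218) and Actr2 (-0.23, adjusted p = 0.0361) completed them. The calls of Cotl1 and Actr2 each held in 9 of 12 fits without 1 library (adjusted p up to 0.0806 and 0.0847). With no filter on low counts Actr2 was not called (adjusted p = 0.157). Nebl rose by 1.43 (SE 0.34, adjusted p = 0.0286) and Actn1 by 0.99 (SE 0.24, adjusted p = 0.0335). Neither was called when untreated mouse 1 or 2, or any 1 of the DCA libraries, of experiment 2 was left out, nor was Actn1 without untreated mouse 3 (adjusted p up to 0.126 for Nebl and 0.141 for Actn1). With a term per mouse Actn1 and Actr2 had adjusted p-values of 0.0701 and 0.0829. Without untreated mouse 2, 5 genes were lower, and after cyclic loess scaling 3 were lower (Actn4, Coro1a and Ezr) and 1 higher (Nebl), against 1.38% and 2.49% of all genes. Arms did not overlap for 21 genes lower with DCA and 2 higher, against 14.6% and 15.6% of all genes.

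No gene of the list was called for a difference of the DCA effect between the experiments, against 0.331% of all genes (0.280% with a higher and 0.0510% with a lower value in experiment 2). By edgeR 11 of the 44 had an unadjusted p under 0.05. DESeq2 called 3 (Wipf1, Vasp and Nebl), limma with TMM or loess scaling and limma-voom called 0, and edgeR with no filter on low counts called 4 (Arpc3, Wipf1, Cfl1 and Nebl). For Nebl the log2 effect was 1.52 smaller in experiment 2 (a difference of -1.52, SE 0.50, adjusted p = 0.179), with 0.0403 by DESeq2 and 0.00302 with no filter. The difference for Actb was -0.17 (SE 0.11, adjusted p = 0.519). Whether the genes responded alike in the 2 experiments is therefore not shown either way. All 7 nucleation and elongation factors had a more negative effect in experiment 2, with a median difference of -0.31, beside 0.04 for all genes.

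Untreated cells of the 2 experiments differed in most of these genes. In experiment 2, 20 were higher and 14 lower than in experiment 1, against 26.7% and 25.2% of all genes (51.8% in all). The 3 libraries of each experiment did not overlap for 22 genes higher and 15 lower in experiment 2, against 31.5% and 28.4% of all genes. These calls compare groups that differ in strain tag and experiment at once, and in peptide if the strain tags hold. Natural killer markers (17.7 to 24.5 against 1.41 to 1.70 CPM) and the endothelial list (14.2 to 17.5 against 41.7 to 42.3 CPM) differed between the same untreated libraries too, and their part in these calls was not tested. The turnover and crosslinking genes were mostly higher: Cotl1 by 2.68 (SE 0.08, adjusted p = 1.17e-11), Coro1b by 2.13 (SE 0.09, adjusted p = 1.13e-10), Coro1a by 1.70 (SE 0.07, adjusted p = 1.03e-10), Lcp1 by 1.23 (SE 0.05, adjusted p = 1.41e-10) and Actn4 by 1.32 (SE 0.08, adjusted p = 4.2e-09) on the log2 scale. Twf2 was higher by 1.91 (adjusted p = 9.69e-10), Msn by 0.89 (adjusted p = 7.94e-09) and Nebl by 2.12 (SE 0.38, adjusted p = 0.000236).

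The 2 actins went in opposite directions between the experiments by TMM scaling. Actg1 was higher in experiment 2 by 1.49 (SE 0.06, adjusted p = 5.06e-11), or 2.81-fold. Actb was lower by TMM scaling, at -0.63 (SE 0.08, adjusted p = 6.64e-06), and higher after cyclic loess scaling, at 0.53 (adjusted p = 9.33e-05), so its direction depends on the scaling. A ratio of 2 genes within a library is untouched by a factor per library such as TMM, but can change with cyclic loess. The shares given next come from counts without loess scaling. Actb made up 85.5% to 88.6% of Actb plus Actg1 counts in untreated and 85.3% to 86.8% in DCA libraries of experiment 1, and 58.6% to 61.0% and 54.3% to 58.3% in experiment 2. The experiments did not overlap, and with DCA the share was lower in all 3 mice of experiment 2 and in 1 of 3 of experiment 1.

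**Figure D4:**
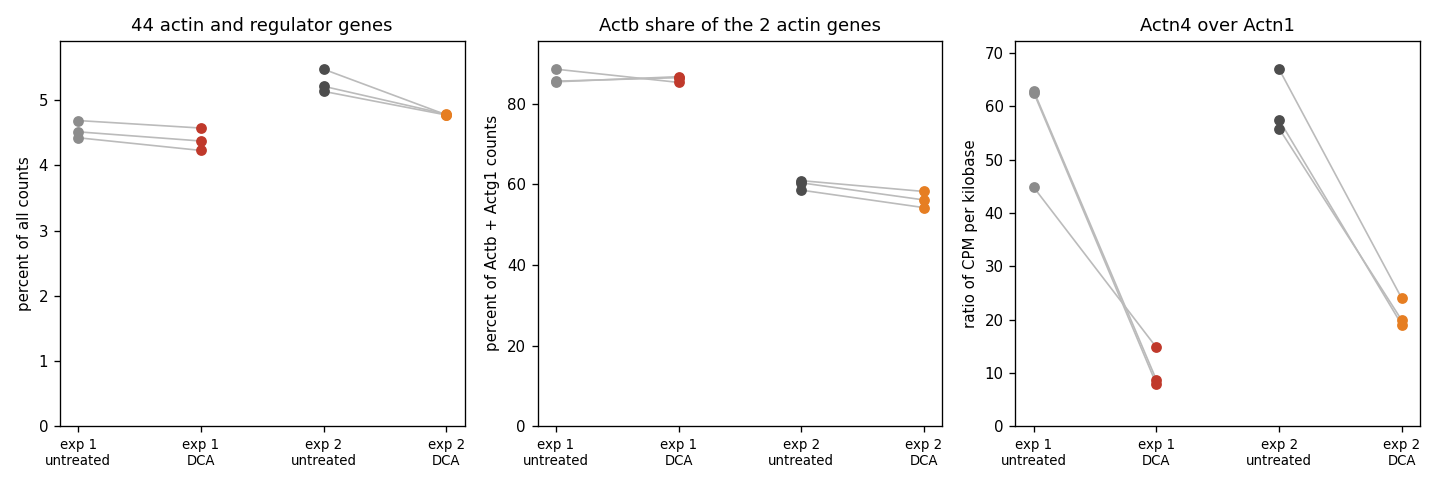
Share of all counts taken by the 44 genes (left, percent), share of Actb in Actb plus Actg1 counts (middle, percent) and ratio of Actn4 to Actn1 CPM per kilobase (right) in the 12 libraries, with lines joining the libraries of a mouse and axes from 0. The ratio falls along all 6 lines, and the Actb share separates the experiments, 85.3% or more against 61.0% or less.

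Arp2/3 members split between the experiments. Arpc5l (-1.57, SE 0.06, adjusted p = 6.01e-11), Arpc5 (-1.17, SE 0.07, adjusted p = 5.33e-09), Actr2 (-0.85, SE 0.06, adjusted p = 1.21e-08) and Arpc2 (-0.83, SE 0.06, adjusted p = 2.92e-08) were lower in experiment 2. Actr3, Arpc1b and Arpc4 were higher, by 0.51, 0.64 and 0.60. After cyclic loess scaling Arpc5l and Arpc5 were still lower (-0.98 and -0.17), Actr2 was not called (-0.11, adjusted p = 0.146), and Arpc2 was higher (0.21, adjusted p = 0.0087). Arpc1a and Arpc1b are alternative subunits: per kilobase Arpc1b stood at 3.33 to 3.96 times Arpc1a in untreated cells of experiment 1 and at 5.15 to 5.77 times in experiment 2, with no overlap.

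The capping genes were lower in experiment 2 by TMM scaling, Capza2 by most (-1.36, SE 0.08, adjusted p = 3.42e-09). After loess scaling Capza2 stayed lower (-0.43) while Capzb was higher (0.49, adjusted p = 1.86e-06) and Capza1 was not called (0.16). Capza2 stood at 0.971 to 1.28 times Capza1 per kilobase in untreated libraries of experiment 1 and at 0.688 to 0.694 times in experiment 2. TMM factors do not touch this ratio, while cyclic loess scaling can. Pfn1 (-0.83, adjusted p = 2.02e-07) and Myl6 (-0.76, adjusted p = 1.76e-07) were lower by TMM scaling. After loess scaling Pfn1 was higher (0.51) and Myl6 was not called (0.08).

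The scaling matters here because abundant genes differed as a body: 1374 of the 2028 genes at 100 CPM or more (67.8%) were called lower in experiment 2 and 382 (18.8%) higher, with a median of -0.66. The 25 actin genes at that level had 12 higher and 11 lower calls and a median of 0.07. Cyclic loess moved the median of all genes by -0.13, and after it 28 of the 44 genes were called higher and 5 lower, against 25.2% and 26.7% of all genes.

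**Figure D5:**
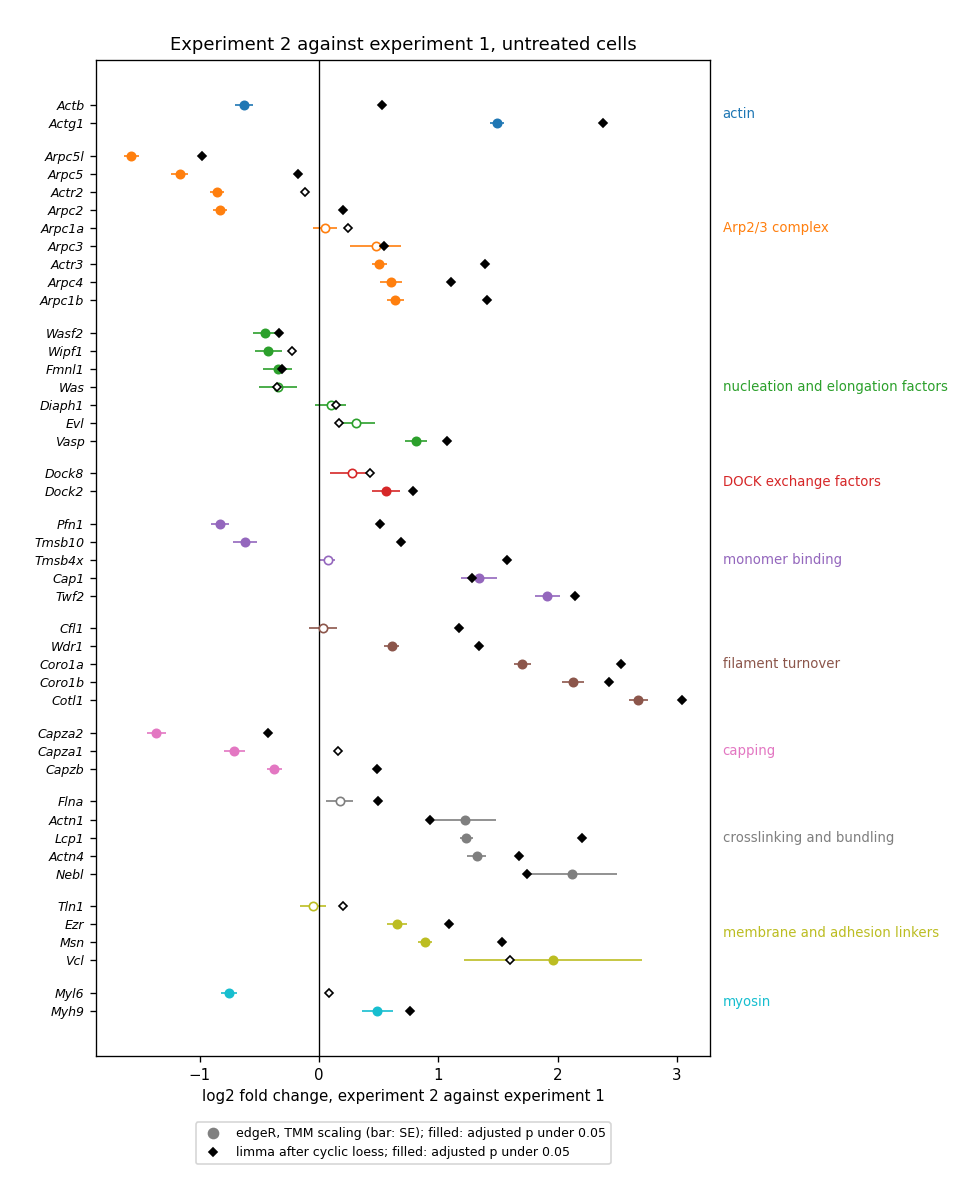
Log2 fold change of untreated cells in experiment 2 against experiment 1 (x axis) for the 44 genes by role (y axis), with circles and SE bars for the edgeR fit, diamonds for the fit after cyclic loess scaling, and filled symbols for an adjusted p under 0.05. Turnover and crosslinking genes lie to the right in both fits, up to 2.68 for Cotl1, while Actb, Pfn1, Arpc2 and Myl6 lie left of 0 as circles and right of 0 as diamonds.

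A further 129 genes of actin regulation that are not in the list were set beside it: 117 could be tested, of which 14 rose and 14 fell with DCA over both experiments, against 7.01% and 9.80% of all genes, with a median log2 fold change of 0.04. The smallest adjusted p-values among those higher were of Yap1, a transcriptional coactivator (2.60, SE 0.38, adjusted p = 0.000575), Vim, the intermediate filament protein vimentin (0.35, SE 0.05, adjusted p = 0.000635), and Marcks, a membrane-bound filament crosslinker (1.09, SE 0.19, adjusted p = 0.00182). Those lower were led by Abi3, of the WAVE complex (-1.32, SE 0.19, adjusted p = 0.000442), Fermt3, the integrin activator kindlin-3 (-0.41, SE 0.06, adjusted p = 0.000708), and Arhgdia, which holds small GTPases inactive (-0.45, SE 0.08, adjusted p = 0.00253). Yap1 rose from group means of 0.264 and 0.179 CPM to 1.49 and 1.22 CPM. By class, 7 of 24 crosslinking and membrane linkage genes were called (4 higher, 3 lower), 7 of 16 turnover and capping genes (5 higher, 2 lower), 4 of 19 nucleation regulators (1 higher, 3 lower) and 3 of 14 small GTPases and kinases (1 higher, 2 lower). The exchange factors and GTPase activating proteins had 2 of 23 called, both lower, and adhesion genes 2 of 8 (1 higher, 1 lower). Myosins had 1 of 8 and transcription factors 1 of 4 called, both higher. Of the class listed as other actins, only Actl6a, an actin-related gene, could be tested, and it was lower. Srf, Mrtfa and Mrtfb, looked up because of the CArG boxes and outside the rule for names, were at -0.14, 0.07 and 0.08 with adjusted p-values of 0.616, 0.822 and 0.764.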

How the data were processed

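Bulk RNA sequencing gave 12 libraries (4 groups of 3). The authors deposited whole-number read counts per gene with no normalization. Their own DCA comparison was deposited too: per the file headers it holds log2 fold changes and log2 CPM beside p-values, false discovery rates and gene lengths of unstated origin. The build GRCm39 and the tools STAR 2.7.10a, fastp 0.23.2 and edgeR 3.36.0 are named in the submitters' processing notes. No source used here gives the counter, annotation or strand setting, so reads shared by near-identical or overlapping genes cannot be told apart.

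The test was edgeR 4.0.16 in R 4.3.3 (TMM factors, filterByExpr by group, quasi-likelihood test, Benjamini-Hochberg adjustment over 15688 genes, threshold 0.05), after a check on simulated data. The comparison over both experiments had a term for experiment, and the other comparisons were contrasts of the 4 group means. SE came from the log2 fold change and the F statistic. CPM are TMM-scaled, and log2 differences per mouse used a pseudocount of 0.5. Limma 3.58.1, DESeq2 1.42.0, other scalings and filters, a term per mouse and leaving out each library were alternatives. The 44 genes and all lists were chosen with earlier results of these data known. Named with tests were the called genes over both experiments and up to 8 per direction elsewhere, by adjusted p, plus Actb and Nebl.

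The same mouse gave both arms, so mice pair the libraries: deviations from group means correlated at 0.039 to 0.0789 within a mouse and at -0.0654 to 0.00145 between mice. Replicates differed by more than counting noise (chi-square per degree of freedom 11.1 to 31.4). The mice are separate animals, but with 3 per group p-values measure only the spread between these libraries. With no molecular identifiers, depth (28039700 to 41051100 counts per library) bounds counting error only.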

Additional observations from a re-analysis of the deposited data

How the results depend on the processing

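Over both experiments, the number of actin genes called higher and lower with DCA was 2 and 18, and it became 6 and 8 after cyclic loess scaling, 4 higher with no filter on low counts, and 0 and 0 with no term for experiment, where the difference between experiments enters the spread. In experiment 1 (5 and 16) it was 9 and 3 after cyclic loess, 10 lower with no filter, 7 lower with a filter of 5 CPM in 3 libraries, and 3 and 10 with a term per mouse (replicate block). In experiment 2 (2 and 8) it was 1 and 3 after cyclic loess, 14 lower by DESeq2, 1 higher with no filter and 1 higher with the replicate block. The difference between experiments (0 and 0) became 3 lower by DESeq2 and 1 higher and 3 lower with no filter. Between untreated cells, 14 lower became 5 after cyclic loess. Leaving out each library in turn gave 2 to 5 higher and 7 to 17 lower in experiment 1, and 0 to 2 higher and 5 to 10 lower in experiment 2. Cyclic loess turned the sign of 10 of the 44 genes over both experiments, of which Lcp1 (0.0228) had been called and Tmsb4x went to 0.13. Between untreated cells it turned 8, of which 7 had been called: Arpc2 (0.21), Myl6 (0.0806), Pfn1 (0.51), Actb (0.53), Capzb (0.49), Capza1 (0.16) and Tmsb10 (0.69). In experiment 1 it turned Actg1 and Lcp1 among the genes called, and in experiment 2 none that was called. RLE size factors, limma with TMM and limma-voom changed no count by over 1.5 times and no named call. The replicate block ended 8 of 44 named calls, each given with its value or count above. The cause of these changes was not tested. Depth limits Vcl most, with 0.0779 to 2.02 CPM.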
